A study of Mus musculus with 10 samples.

Results

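Inspiratory neurons of the preBötzinger complex (preBötC), the site in the lower brainstem that generates the breathing rhythm, were taken from 2 mouse lines, and their transcriptomes are compared here across all genes. The groups were formed from the mouse line in the sample labels, and they take in all 10 neurons of the series: 4 Dbx1-derived neurons from Dbx1;Ai148 mice (samples 1, 5, 6 and 7) and 6 neurons from CD-1 mice (samples 2, 3, 4, 8, 9 and 10). The method was Patch-Seq, in which the contents of 1 recorded neuron are drawn into the patch pipette and sequenced, so each sample is 1 neuron and 1 library. Of 55367 listed genes, 21231 were seen in any neuron, and the comparison was made over the 10420 that reached 1 FPKM (fragments per kilobase of a gene's length, scaled to 1000000 counted fragments) in at least 3 of the 10 neurons.

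Dbx1;Ai148 pups came from Dbx1Cre mothers, in which Cre recombinase is driven by the Dbx1 promoter, and Ai148 fathers, whose allele gives the calcium indicator GCaMP6f after Cre has acted. Their background was C57Bl/6J or a C57Bl/6J and CD1 mixture, and the CD-1 pups were wild type. The Dbx1;Ai148 neurons were recorded at P0 (samples 1 and 5) and P3 (samples 6 and 7), and the CD-1 neurons at P0 (samples 3 and 8), P1 (sample 10), P2 (samples 2 and 9) and P3 (sample 4), where P counts days after birth. Neurons of Dbx1;Ai148 slices were picked by their rhythmic fluorescence, whereas those of CD-1 slices were picked by their activity in step with hypoglossal nerve output once whole-cell recording had begun. Neuron type followed the line as well: 3 Dbx1;Ai148 neurons were Type-1 (inspiratory drive that begins early before the burst, with an A-type potassium current) and sample 1 was Type-2 (drive that begins later, with an h-current), while in CD-1 mice sample 4 was Type-1 and the other 5 were of Unknown type. Line, genetic background, the way a neuron was picked and neuron type therefore cannot be told apart in these samples. The CD-1 group is also no group without Dbx1-derived neurons, since nothing in the labels says which of its neurons came from that lineage. No animal is named in the labels, so each line counts as 1 sample and neither a test nor a p-value can be given. The SD over neurons (n = 4 and n = 6) and the overlap of single neurons describe the spread.

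Dbx1 encodes a homeodomain transcription factor of progenitor cells in the ventral hindbrain and spinal cord, and the cells born from them are called V0 interneurons. The factor is switched off as these cells become neurons, whereas later factors such as Evx1 and Evx2 mark the ventral, mostly excitatory V0 cells, and inhibitory V0 cells lack them. In the preBötC, glutamatergic Dbx1-derived neurons are held to be the source of the inspiratory rhythm, and they mix there with inhibitory neurons of other origins.

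The libraries of the lines differed in more than their neuronal genes. Fragments counted on genes ran from 21392146 to 36629393, with overlapping ranges. Mitochondrially encoded genes took 0.219% to 1.25% of fragments in the Dbx1-derived neurons and 0.347% to 9.85% in the CD-1 neurons, where sample 10 was lowest and the other 5 were above 5%. The gene length below which 50% of the fragments fell did not overlap, at 4133 to 4800 bases in the Dbx1-derived neurons and 1849 to 4097 bases in the CD-1 neurons. Markers of neurons were present in all 10 libraries, but their summed level was 58.4 FPKM in sample 4 against 761 FPKM or more in each of the others. In the same library the microglia markers summed to 15398 FPKM, so its markers go against the name of a neuron library. The Type-1 label rests on the recording, which these values cannot judge. The sample is called the library labelled Type-1 from CD-1 (sample 4) where a value rests on it. Sample 1 had the fewest genes at 1 FPKM or more among the Dbx1-derived neurons, 5065 against 8720 or more. Samples 1 to 4, 1 Dbx1;Ai148 and 3 CD-1 neurons, also had the lowest cDNA yields by the methods of the series. Counts are therefore also given without sample 4, without sample 1 and for samples 5 to 10, which hold 3 neurons of each line.

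**Figure D1:**
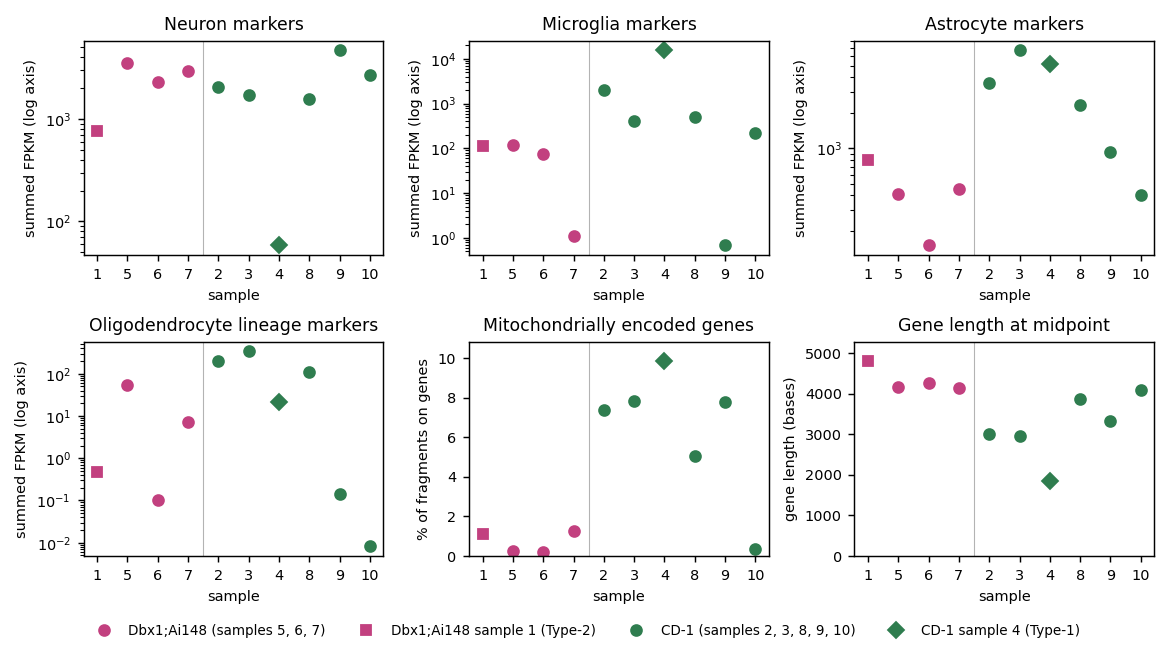
Summed FPKM of 4 lists of cell type markers (log axes), the percentage of fragments from mitochondrially encoded genes, and the gene length below which 50% of the fragments fell (bases), with 1 point per neuron and the Dbx1;Ai148 neurons left of the line in each panel. The gene length is 4133 bases or more in each Dbx1;Ai148 neuron and 4097 bases or less in each CD-1 neuron, and sample 4 has the highest microglia sum, 15398 FPKM, and the lowest neuron sum, 58.4 FPKM.

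Comparing the lines asks which genes differ in level between the Dbx1;Ai148 and the CD-1 libraries. It cannot set Dbx1-derived neurons against neurons of other origin, since the CD-1 group may hold both. Asb4, the serotonin receptor Htr2a and the glycine receptor subunit Glra3 were present in each Dbx1-derived neuron and near 0 or low in each CD-1 neuron, whereas Rac2 and Lmo2, genes of the blood lineage, and the chemokine Ccl3 were higher in each CD-1 neuron. The lineage factor Evx2 was found in 3 of 4 Dbx1-derived neurons and transmitter genes overlapped between the lines. The FPKM of 142 genes (1.36% of the 10420) were higher in every Dbx1-derived neuron than in any CD-1 neuron, and those of 121 genes (1.16%) were higher in every CD-1 neuron than in any Dbx1-derived neuron. In 111 of the 142 and 104 of the 121, every neuron of the higher line reached 1 FPKM. In 54 of the 142 (0.518% of the 10420) and 25 of the 121 (0.24%), every neuron of the lower line was under 1 FPKM. Those genes met the limit of 3 neurons through the higher line alone, so their detection there was in part set by the limit. The share of these genes that was higher in Dbx1;Ai148 was 54.0% with FPKM as deposited, 53.3% and 52.2% with 2 other scalings of the counts (TMM and DESeq2 size factors), and 79.8% with TPM, where 229 genes were higher in Dbx1;Ai148 and 58 in CD-1. Of the 142 genes, 95 kept from overlapping under each of these 4 scalings, and 30 of the 121 did. Without sample 4 there were 163 (1.56%) and 155 (1.49%) genes whose lines did not overlap, without sample 1 there were 363 (3.48%) and 145 (1.39%), and over samples 5 to 10 there were 652 (6.26%) and 462 (4.43%). Leaving out a neuron can only add genes to these counts, since fewer values have to stay apart. The larger counts are therefore no sign of a clearer difference.

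Differences are given below as the mean log2(FPKM + 1) of the Dbx1-derived neurons minus that of the CD-1 neurons, a scale that understates ratios for genes of low level. The median difference over all 10420 genes was 0.26, with 57.5% of genes above 0, and it shifted by -0.15, -0.17 and 0.29 under TMM, DESeq2 and TPM scaling, so list medians are read against it. A difference of 2 or more was found for 937 genes (8.99%) in favor of Dbx1;Ai148 and for 555 (5.33%) in favor of CD-1. The 2 P0 neurons of each line, the only age with more than 1 neuron in both, gave a median of -0.04. Their FPKM did not overlap for 1506 genes (14.5%) higher in Dbx1;Ai148 and 1688 (16.2%) higher in CD-1. With so few neurons many genes separate by order alone, so these shares are not read as a difference between the lines.

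Asb4 (chr6:5383386-5433022, plus strand, protein coding) had the largest difference of the genes that kept the lines apart. It encodes a protein with ankyrin repeats and a SOCS box that serves in a ubiquitin ligase. Its level was 7.61, 136, 1440.3 and 432 FPKM in samples 1, 5, 6 and 7, and 0.0491 to 2.15 FPKM (median 0.368) in the CD-1 neurons. The 3 Type-1 Dbx1-derived neurons were each above 100 FPKM, and the Type-2 neuron, sample 1, was lowest but still above every CD-1 neuron. On the log2 scale the levels were 7.36 ± 3.16 against 0.56 ± 0.61, a difference of 6.80, and 8.22 without sample 1. The fragments on Asb4 were 242172 over the 4 neurons (95% Poisson interval 241208 to 243138, counting error only) and 361 over the 6 CD-1 neurons (325 to 400).

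The other 13 of the 14 genes that led this direction were each highest in sample 1. Ift172, which encodes a component of the transport along cilia, was at 57.2, 6.81, 14.4 and 13.1 FPKM in samples 1, 5, 6 and 7 and at 0.00834 to 0.0274 FPKM (median 0.0165) in CD-1. Its CD-1 values are 19 fragments in all, so it was present in every Dbx1-derived neuron and near 0 in every CD-1 neuron. The same pattern was seen in Gpr19, an orphan G protein-coupled receptor, at 48.3, 1.44, 37.6 and 16.4 FPKM against at most 0.0931 FPKM, and in Mppe1, an enzyme that trims the lipid anchors of surface proteins, at 26.3, 19.7, 12.3 and 8.36 FPKM against at most 0.0251 FPKM. Mppe1 shares 22.6% of its 50-base stretches with Gnal, whose exons overlap it on the other strand, and Gpr19 shares 6.85% with 2810454H06Rik in the same way; the libraries do not mark the strand, so reads of such partners cannot be told apart.

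Fbxl6, an F-box protein of ubiquitin ligases, was at 319, 14.9, 34.0 and 100.4 FPKM in samples 1, 5, 6 and 7. In CD-1 mice sample 8 held 13.2 FPKM and the other 5 neurons at most 0.148 FPKM, so the lines came within 2 FPKM of each other in samples 5 and 8. Spns1, a lysosomal transporter, was at 103, 23.2, 23.1 and 37.0 FPKM against 0 to 3.55 FPKM (median 0.0477), and Mapk7, the kinase ERK5, at 149, 9.08, 14.2 and 11.2 FPKM against 0 to 5.00 FPKM (median 0.0268). Each of these 3 genes had 1 CD-1 neuron far above the rest of its group, sample 8 for Fbxl6 and Spns1 and sample 9 for Mapk7.

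Among the remaining genes of this group, Sphkap, an anchor of protein kinase A, and Tia1, an RNA-binding protein of stress granules, varied least among the Dbx1-derived neurons. Sphkap was at 34.2, 14.8, 12.8 and 13.7 FPKM against 0 to 2.84 FPKM (median 0.0168), and Tia1 at 32.7, 16.3, 27.4 and 26.8 FPKM against 0.0105 to 5.79 FPKM (median 0.425). Ogt, the enzyme that adds O-linked N-acetylglucosamine to proteins, had the highest CD-1 median of these 14 genes, at 125, 80.4, 38 and 32.7 FPKM against 0.0377 to 19.7 FPKM (median 3.78). Thap3, Eps15l1, Cactin and Snx11 had differences of 4.27, 4.00, 3.97 and 3.91. They encode a zinc-finger protein, an endocytic adaptor, a splicing factor and a sorting nexin, and 15.1% of Snx11 is shared with Gm11537 on the other strand. All 14 genes kept from overlapping under the 4 scalings. Their differences ran from 3.81 to 6.80 with all neurons, and from 2.98 to 8.22 without sample 1.

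**Figure D2:**
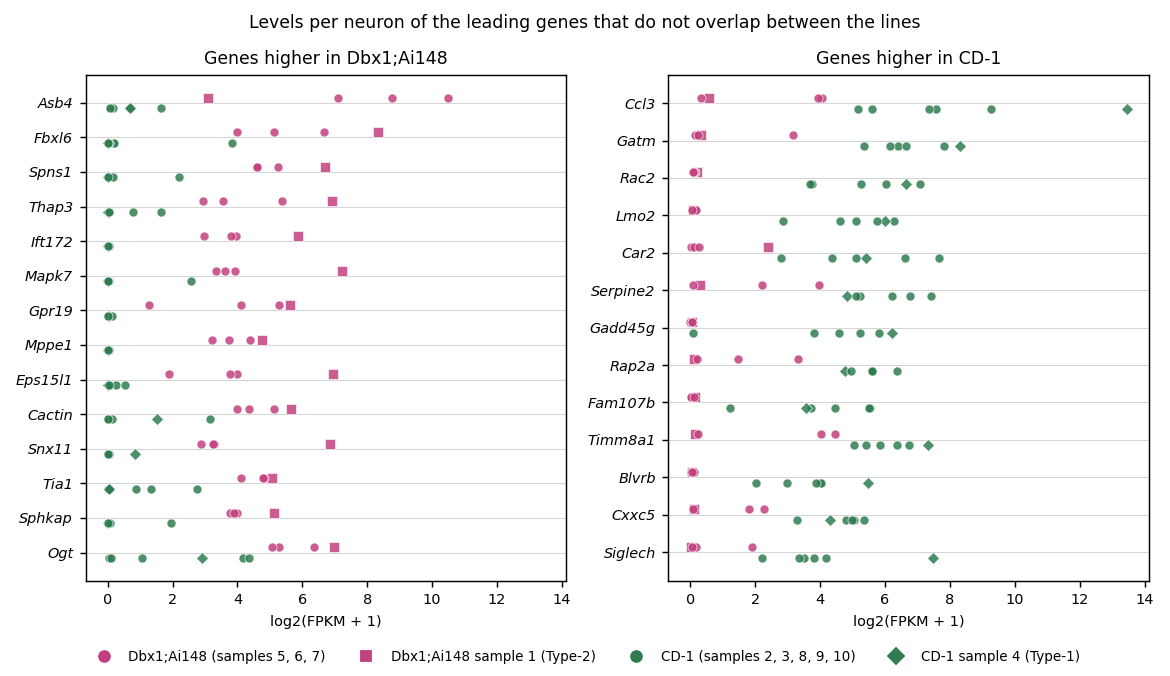
Level of each leading gene in log2(FPKM + 1), with 1 point per neuron, Dbx1;Ai148 neurons in magenta and CD-1 neurons in green, for the 14 leading genes higher in Dbx1;Ai148 (left) and 13 of those higher in CD-1 (right). The square, sample 1, is the highest point in 13 of the 14 genes on the left, and the diamond, sample 4, in 6 of the 13 on the right.

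In the other direction Ccl3 led. Ccl3 (chr11:83647844-83649355, minus strand, protein coding) encodes a chemokine made by microglia and other immune cells. It was at 0.488, 15.8, 14.5 and 0.254 FPKM in samples 1, 5, 6 and 7, and at 34.8 to 11305 FPKM (median 176) in the CD-1 neurons, where sample 4 had the highest value. The difference was -5.84 on the log2 scale (2.23 ± 2.06 against 8.07 ± 3.03) and -4.76 without sample 4. Siglech, a lectin of microglia, was at 0.0138, 2.74, 0.122 and 0.0345 FPKM against 3.62 to 176 FPKM (median 11.7), and was also highest in sample 4.

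The list of microglia markers lay on the same side. All 7 members compared (Aif1, C1qa, C1qb, C1qc, Cx3cr1, P2ry12 and Tyrobp) had a lower mean in Dbx1;Ai148, with a median difference of -3.59, -2.59 without sample 4 and -1.17 over samples 5 to 10. None of them kept the lines apart. The summed level of the 8 listed markers was 1.11 to 121 FPKM in the Dbx1-derived neurons and 0.685 to 15398 FPKM in the CD-1 neurons, with the lowest value in sample 9. In sample 9, where C1qa had 0 fragments and Tyrobp was at 0.408 FPKM, Ccl3 was still at 34.8 and Siglech at 9.25 FPKM. Conversely, samples 5 and 6 held Tyrobp at 47.5 and 50.4 FPKM and Ccl3 at 15.8 and 14.5 FPKM. The part of microglial RNA in these differences was not tested beyond these values.

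Rac2, a small GTPase of blood cells, and Lmo2, a transcriptional adaptor of blood development, were near 0 in each Dbx1-derived neuron. Rac2 was at 0.151, 0.0968, 0.0819 and 0.0502 FPKM against 11.9 to 135 FPKM (median 50.7), and Lmo2 at 0.0647, 0.113, 0.132 and 0.0360 FPKM against 6.23 to 76.5 FPKM (median 43.4). Each CD-1 neuron was thus at least 6 FPKM above every Dbx1-derived neuron for these genes, sample 9 with its low microglia sum included (12.6 and 23.6 FPKM). In samples 5 and 6, with Tyrobp near 50 FPKM, Rac2 was at 0.0968 and 0.0819 FPKM. The part of microglial RNA in the levels of Rac2 and Lmo2 was not tested.

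Gatm, which catalyzes the first step of creatine synthesis, was at 0.265, 7.90, 0.106 and 0.169 FPKM against 40.3 to 319.5 FPKM (median 91.7), a difference of -5.82. Car2, a carbonic anhydrase, was at 4.28, 0.0113, 0.0918 and 0.209 FPKM against 5.99 to 201 FPKM (median 37.7), and Serpine2, an inhibitor of serine proteases, at 0.220, 0.0494, 3.66 and 14.6 FPKM against 27.3 to 170.4 FPKM (median 54.8). These genes are abundant in glia as well as in some neurons, and the astrocyte list lay on the same side. Each of its 8 members compared had a lower mean in Dbx1;Ai148, with a median of -1.73, -2.19 without sample 4 and -1.40 over samples 5 to 10. Their summed level was 151 to 794 FPKM in the Dbx1-derived neurons and 400.0 to 6714 FPKM in the CD-1 neurons, with Apoe and S100b at differences of -3.69 and -2.50. The defining markers Aqp4 and Gfap were at 0.131 and 0.0194 FPKM or less in each Dbx1-derived neuron and reached 76.4 FPKM in sample 3 and 37.9 FPKM in sample 2. Astrocyte RNA as a part of these differences was not tested.

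Other leading genes of CD-1 were Gadd45g, Rap2a, Fam107b, Timm8a1, Blvrb and Cxxc5, with differences between -4.26 and -3.56. Gadd45g, a stress-induced growth arrest gene, was at 0.0399 FPKM or less in Dbx1;Ai148 and ranged from 0.0705 to 73.4 FPKM in CD-1. Its lowest CD-1 value was 3 fragments in sample 2, beside at most 1 in each Dbx1;Ai148 neuron. Sample 2 is thus not clearly apart from Dbx1;Ai148 for this gene, and 5 of the 6 CD-1 neurons reached 1 FPKM. Rap2a, a small GTPase of the Ras family, was the most even in CD-1, at 26.5 to 81.4 FPKM (median 47.6) against 0.0892, 9.01, 1.75 and 0.149 FPKM. Blvrb, a biliverdin reductase, was at 3.06 to 43.3 FPKM (median 14.4) in CD-1 and at 0.0799 FPKM or less in Dbx1;Ai148. Timm8a1, for import into mitochondria, shares 41.0% of its 50-base stretches with Gm9797, so its level is uncertain. Of the 14 genes, 9 kept from overlapping under all 4 scalings. Car2 and Gadd45g overlapped with DESeq2 size factors, and Car2, Serpine2 and Siglech were among those that overlapped with TPM. Differences of the 14 ran from -5.84 to -3.55 with all neurons and from -5.52 to -2.88 without sample 4.

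The promoters of the leading gene of each direction are shown to give the sequence at their start. They cover 250 bases before and 50 bases after the RefSeq start on GRCm38.p6, 5′ to 3′ on the gene's strand, at chr6:5383136-5383435 (plus strand) for Asb4, the first of 2 listed, and chr11:83649329-83649628 (minus strand) for Ccl3. Capitals mark a match on either strand to the TATA box TATAAA, the E-box CACGTG, the cyclic AMP element TGACGTCA, the GC box GGGGCGGGG or the CCAAT box. Asb4 holds a CCAAT and Ccl3 none of these motifs.
Asb4: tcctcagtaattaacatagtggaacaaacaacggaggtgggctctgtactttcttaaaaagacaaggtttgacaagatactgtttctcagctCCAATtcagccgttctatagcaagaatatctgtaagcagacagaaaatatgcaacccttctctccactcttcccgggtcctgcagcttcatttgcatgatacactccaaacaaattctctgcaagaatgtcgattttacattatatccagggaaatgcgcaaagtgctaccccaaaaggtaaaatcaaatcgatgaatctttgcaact
Ccl3: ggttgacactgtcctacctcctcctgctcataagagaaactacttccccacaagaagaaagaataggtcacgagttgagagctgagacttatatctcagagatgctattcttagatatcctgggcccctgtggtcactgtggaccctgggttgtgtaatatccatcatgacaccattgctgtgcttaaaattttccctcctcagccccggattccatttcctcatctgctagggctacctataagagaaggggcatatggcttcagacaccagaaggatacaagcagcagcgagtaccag
CCAAT was found in 48.2% of the 110 promoters of named genes higher in Dbx1;Ai148, in 42.2% of the 45 of named genes higher in CD-1 and in 38.5% of those of all named genes compared. TATAAA was found in 3.64%, 13.3% and 6.33% of the same sets, the 13.3% being 6 promoters. A match is a stretch of letters and says nothing of a factor.

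Lineage factors were examined next, since they bear on what the Dbx1;Ai148 label means. Dbx1 itself had 0 fragments in all 10 neurons, which allows up to 3 in each, and Evx1 was likewise at 0 in each. Evx2 (chr2:74652991-74659557, minus strand) was at 0, 1.89, 12.8 and 14.1 FPKM in samples 1, 5, 6 and 7, and at 0 to 0.126 FPKM (median 0.0255) in CD-1. It thus passed 1 FPKM in the 3 Type-1 Dbx1-derived neurons and in no CD-1 neuron, and was not found in sample 1. Lhx5, which like Lhx1 encodes a LIM homeodomain factor of hindbrain and spinal interneurons, was at 0, 22.7, 16.1 and 14.2 FPKM, and of the CD-1 neurons sample 8 reached 12.1 FPKM. Lhx1 was at 2.39, 30.9, 82.2 and 2.48 FPKM, and sample 2 of CD-1 held 43.5 FPKM. Meis1, a hindbrain homeobox factor, was at 13.2, 23.0, 22.9 and 16.0 FPKM against 0.0152 to 13.6 FPKM (median 0.110), with sample 8 again the highest of CD-1. Evx2, En1, Bhlhe22, Pax2, Nfib, Slc6a5, Slc32a1, Tacr1, Trpm4, Kcnd3, Dcc and Nnt are named here and below for their known roles, after their values were seen. The transcript of the GCaMP6f reporter is not among the genes analysed here.

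Sample 1 differed from the other Dbx1-derived neurons in this list. It held En1, the marker of V1 inhibitory interneurons from the neighboring progenitor domain, with 7.41 FPKM, close to the 7.23 FPKM of sample 10 from CD-1, whereas samples 5, 6 and 7 were at 0.0148 FPKM or less. En1 reached 1 FPKM in 2 neurons only and was therefore not among the genes compared. Of 40 listed lineage factors 10 were compared. Their means were higher in Dbx1;Ai148 for 8 and lower for 2, with a median of 1.78 against 0.26 for all genes, and none kept the lines apart. Bhlhe22 and Pax2 had differences of 1.93 and 1.48. Nfib was lower in Dbx1;Ai148, at 0.0260 FPKM or less in each neuron and 0 to 10.7 FPKM (median 4.94) in CD-1. Over the listed factors with a fragment in any neuron, without the limit on low values, the median was -0.13.

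Transmitter genes overlapped between the lines. Slc17a6 (chr7:51622006-51671119, plus strand), the vesicular glutamate transporter VGLUT2, was at 0.260, 101, 158 and 156 FPKM in samples 1, 5, 6 and 7, and at 0.0303 to 230.4 FPKM (median 0.326) in CD-1. Its high values belonged to the 3 Type-1 Dbx1-derived neurons and to sample 8, the neuron that also carried Lhx5 and Meis1. Sample 1, low in Slc17a6, carried Meis1 as well. The difference of Slc17a6 was 3.67 with all neurons and -0.52 over the P0 neurons, where sample 1 meets sample 8. Slc17a7 and Slc17a8 were at 0 throughout. The glycine transporter Slc6a5 was highest in samples 1 and 10, with 146 and 8.60 FPKM, and stayed at or below 0.178 FPKM in the remaining 8 neurons. Gad1, an enzyme of GABA synthesis, was at 71.8, 0.0179, 0 and 0.194 FPKM in Dbx1;Ai148 and at 0.00889 to 92.0 FPKM (median 4.16) in CD-1. So 1 of 4 Dbx1-derived neurons and 2 of 6 CD-1 neurons (samples 3 and 10) held Gad1 above 30 FPKM. The difference of Gad1 was -0.90, or -3.17 over samples 5 to 10. The vesicular transporter Slc32a1, a marker of the same kind, did not follow Gad1 and Slc6a5. It was at 0.0167, 0 and 0.375 FPKM in samples 1, 3 and 10, and was highest in sample 2, with 5.95 FPKM. Of the cholinergic and motoneuron genes only Prph was compared, with a difference of -2.70 and its highest level, 719 FPKM, in sample 9.

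**Figure D3:**
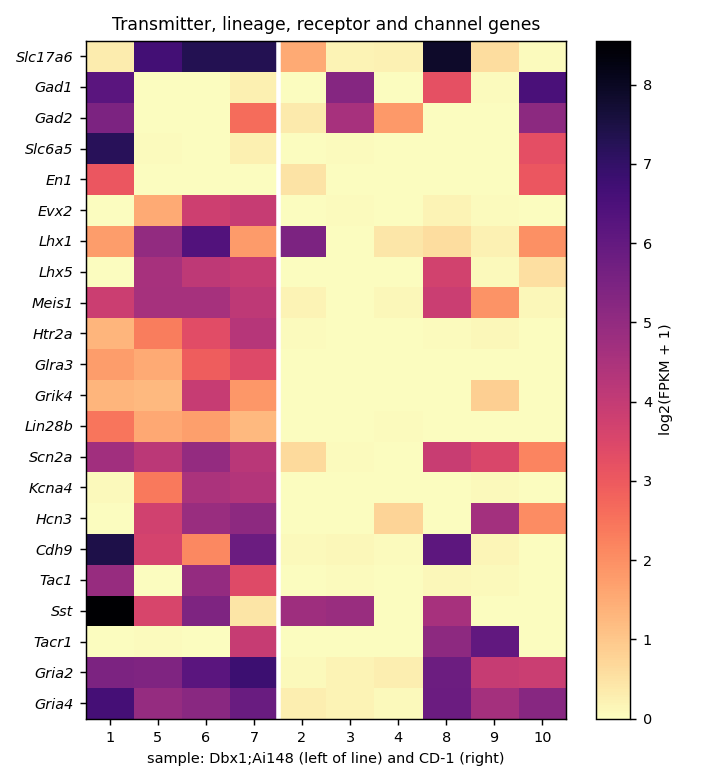
Levels of 22 genes, chosen after their values were seen, in log2(FPKM + 1) (color), with 1 column per neuron and the Dbx1;Ai148 neurons left of the white line. Samples 5, 6 and 7 share Slc17a6, Lhx5 and Meis1 with sample 8, and of these genes sample 1 holds Meis1 only. Evx2 reaches 1 FPKM in samples 5, 6 and 7 alone. Htr2a, Glra3, Grik4 and Lin28b reach it in all 4 Dbx1;Ai148 neurons and in no CD-1 neuron.

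Peptides, receptors and adhesion genes used to describe the preBötC were higher on average in Dbx1;Ai148. Of 27 listed genes, 11 were compared, 9 with a higher and 2 with a lower mean, and the median was 1.53, 1.00 without sample 4 and 0.57 over samples 5 to 10. None kept the lines apart. Cdh9, a cadherin expressed in preBötC neurons, was at 172, 11.4, 3.34 and 56.4 FPKM, and in CD-1 sample 8 held 69.7 FPKM and the remaining neurons at most 0.102 FPKM. Tac1, the precursor of substance P, was at 28.6, 0.0161, 30.1 and 9.39 FPKM against 0 to 0.0775 FPKM (median 0.0182), so that it was near 0 in sample 5 and in all CD-1 neurons. Sst, somatostatin, was at 375, 10.8, 41.8 and 0.378 FPKM against 0 to 28.0 FPKM (median 11.4), and reelin (Reln) at 5.56, 1.1, 15.8 and 8.05 FPKM against 0.00697 to 4.80 FPKM (median 0.0871). The receptor for substance P, Tacr1, was found in 1 Dbx1;Ai148 and 2 CD-1 neurons, with 14 FPKM in sample 7 and 33.0 and 64.0 FPKM in samples 8 and 9 of CD-1.

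Among ion channels, Scn2a kept the lines apart. Scn2a (chr2:65620771-65767447, plus strand), a voltage-gated sodium channel, was at 24.8, 16.9, 29.8 and 17.4 FPKM in samples 1, 5, 6 and 7, and at 0.0132 to 13.7 FPKM (median 2.06) in CD-1. Its difference was 2.78, and 1.24 over samples 5 to 10, where the lowest Dbx1;Ai148 and the highest CD-1 value were 16.9 and 13.7 FPKM. The levels of Scn2a overlapped under DESeq2 size factors.

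Sodium and cation inward currents as a list had a median of 1.06, with 12 of 14 means higher in Dbx1;Ai148, and 0.27 over samples 5 to 10. Its next members were Scn3b at 2.41, Trpm7 at 2.13 and Scn8a at 1.90. Trpm4, a calcium-activated cation channel, was lower, with 0.0151 FPKM or less in each Dbx1-derived neuron and 7.27, 2.32 and 4.60 FPKM in samples 2, 4 and 10. Delayed rectifier and M-current genes had a median of 0.73 over 8 genes and calcium channels of 1.18 over 9. Kcna3 was at 12.4 FPKM or less in Dbx1;Ai148 and at 0 to 70.8 FPKM (median 31.9) in CD-1, a difference of -2.76. Cacnb4, Cacna1a and Cacna1b had differences of 2.79, 2.51 and 2.48, and Cacnb3 of -2.47.

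The currents that define the neuron types were mixed. The A-current list had a median of -0.48, with 4 of 9 means higher in Dbx1;Ai148. Kcna4 was at 0.0484, 4.23, 21.4 and 19.1 FPKM in Dbx1;Ai148 and at 0.0562 FPKM or less in CD-1, where sample 4, the library labelled Type-1 from CD-1, held 0.0141 FPKM. Kcnd3, which encodes another A-type channel, went the other way. It was at 16.4, 1.72, 0.0166 and 0.0041 FPKM in samples 1, 5, 6 and 7, so it was highest in the Type-2 neuron. In CD-1 it was at 0.0134 FPKM or less, and it did not reach the limit for comparison. Kcnip1 and Kcnip3, auxiliary subunits of A-type channels, were lower in Dbx1;Ai148 by mean, with differences of -2.41 and -2.10. For the h-current, Hcn3 was at 0.0225, 12.1, 28.3 and 33.5 FPKM against 0 to 24.1 FPKM (median 0.363) and Hcn2 had a difference of -0.55. The 5 listed h-current genes summed to 6.24 FPKM in the Type-2 neuron, sample 1, to 36.8 to 44.1 FPKM in the Type-1 Dbx1-derived neurons and to 0.147 to 73.1 FPKM in CD-1, so sample 1 had the lowest sum of its line while 1 of these genes reached 1 FPKM there.

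Receptors for fast transmitters were next. AMPA and NMDA receptor genes had a median of 1.21, with 10 of 12 means higher in Dbx1;Ai148, and 0.10 over samples 5 to 10, beside 0.11 for all genes there. Gria2, which makes AMPA receptors impermeable to calcium, was at 43.6, 40.8, 73.0 and 110.5 FPKM. In CD-1 it split between samples 2, 3 and 4, at 0.232 FPKM or less, and samples 8, 9 and 10, at 13.6 FPKM or more. Its difference was 3.61 over all neurons and 1.6 over samples 5 to 10. Gria4 split the same way, with differences of 2.95 and 0.10. Without samples 1 to 4 the difference of Gria4 was thus near 0, and that of Gria2 was smaller but still above the median of all genes.

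Glra3 (chr8:55940460-56130070, plus strand), the alpha 3 subunit of the glycine receptor, was the member of the GABA-A and glycine receptor list that kept the lines apart. Its level was 2.34, 1.88, 6.53 and 9.79 FPKM in samples 1, 5, 6 and 7, and 0.00984 FPKM or less in each CD-1 neuron. Samples 6 and 7 were highest, and no scaling made the lines overlap. The difference was 2.4 (2.4 ± 0.92 against 0.00 ± 0.01), and 2.62 over samples 5 to 10. The list had a median of 1.06 over 14 genes, with Gabrb1, Gabra5 and Glrb at 2.42, 2.16 and 2.15. Those genes overlapped between the lines.

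Genes of vesicle release had a median of 1.43 over 21 genes, with 19 means higher in Dbx1;Ai148, and 0.92 without sample 4, 0.77 over samples 5 to 10 and -0.087 over the P0 neurons. The synaptic vesicle proteins Sv2a and Sv2b had differences of 2.94 and 2.86, and Syn1 of 2.19. Neuron markers, by comparison, had a median of 0.84, which was 0.15 without sample 4. Among calcium-binding proteins, Vsnl1 (visinin-like 1) kept the lines apart at 86.6, 166, 131 and 81.8 FPKM against 0.226 to 79.4 FPKM (median 57.5). Sample 7, at 81.8, and sample 2, at 79.4 FPKM, lay next to each other, and the lines overlapped under TMM and DESeq2 scaling. The median of that list was 0.05, and calretinin (Calb2) had its largest negative difference, -1.76.

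**Figure D4:**
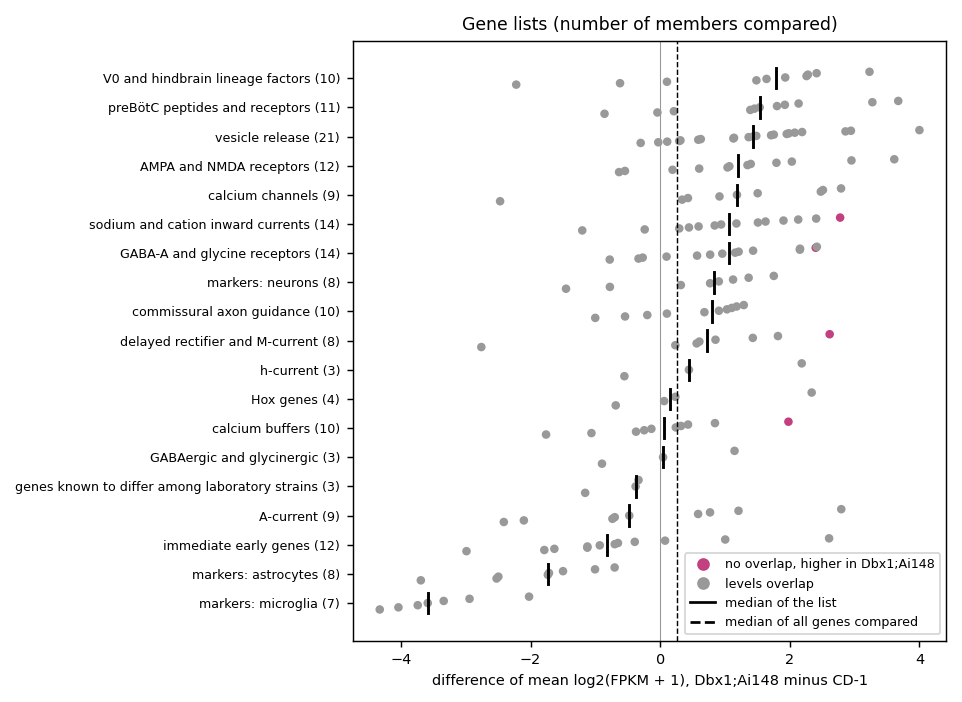
Difference of mean log2(FPKM + 1), Dbx1;Ai148 minus CD-1, for each compared member of the lists with at least 3 such members (points), the median of each list (bar) and the median of all genes compared (dashed line, 0.26). The microglia and astrocyte markers lie below 0 throughout, and the 4 magenta points, Scn2a, Glra3 and Vsnl1 among them, are the genes that kept the lines apart.

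Over all lists, 4 of the 181 genes compared (2.21%) kept the lines apart with a higher level in Dbx1;Ai148, beside 1.36% of all genes, and 0 did so with a higher level in CD-1. Commissural axon guidance genes had a median of 0.79 over 10 genes, led by the semaphorin receptor Nrp2 at 1.29 and the Slit receptor Robo2 at 1.18. Hox genes, which set position along the hindbrain, had a median of 0.15 over 4, with Hoxa4 at 0.0587, 22.2, 17.7 and 35.1 FPKM against 0 to 41.2 FPKM (median 0.0213). Dcc, the netrin receptor, had 0 fragments in all 4 Dbx1-derived neurons and was at 5.60, 1.25 and 3.35 FPKM in samples 8, 9 and 10. Immediate early genes, induced by activity or by handling, had lower means in Dbx1;Ai148 for 9 of 12, with a median of -0.82 and of -0.08 over samples 5 to 10. Fos was at 0.457, 146, 94.6 and 16.8 FPKM against 26.0 to 302 FPKM (median 96.5), and Ier2 at 0.245, 0.125, 13.9 and 0.0255 FPKM against 0 to 142 FPKM (median 49.1). Sample 1 was below 0.5 FPKM for each. Nr4a2, an orphan nuclear receptor, had the largest difference of the list in the other direction, at 2.61. Of the list of connexins and pannexins, 2 genes were compared, both pannexins, Panx1 at 1.22 and Panx2 at 0.38. No connexin reached the limit for comparison. Of the markers of other cells, 2 of 8 of the oligodendrocyte lineage were compared, with a median of -1.68 and 0.72 over samples 5 to 10, and 0 of those of endothelial, mural, ependymal and erythroid cells reached the limit for comparison.

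Genes known to differ among laboratory strains were listed because the lines differ in background. Nnt, which C57Bl/6J mice carry in a deleted form, had 0.144 FPKM in sample 7 and 0 in the other 3 Dbx1-derived neurons. In CD-1 it had 11.5 and 5.31 FPKM in samples 4 and 8 and 0.0157 FPKM or less in the other 4, so that most CD-1 neurons lacked it as well. Glo1 and Gabra2 had differences of -1.16 and -0.34. Xist, expressed from the inactive X chromosome of females, reached 1 FPKM in 3 of 4 Dbx1;Ai148 and 2 of 6 CD-1 neurons, while Y-linked genes had at most 1 fragment in any neuron. Within 10 megabases of Dbx1 (chr7:49631499-49636849), where the Cre allele lies, 101 genes were compared, of which 0 were higher in every Dbx1-derived neuron, beside 1.36% of all genes, and 4 were higher in every CD-1 neuron, beside 1.16%.

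A stricter pattern was looked for after the first values had been seen: 1 FPKM or more in every neuron of a line and in no neuron of the other. It held for 23 genes (0.221%) of Dbx1;Ai148 and for 8 (0.0768%) of CD-1. Each of these genes met the limit for comparison through the neurons of its higher line alone. The 23 include Ift172, Gpr19, Mppe1, Eps15l1, Snx11 and Glra3 from above. The following genes were chosen from them after their values were seen, for what they are known to do. Htr2a (chr14:74640840-74709494, plus strand), the serotonin 2A receptor, through which serotonin excites respiratory neurons, was at 1.52, 4.05, 9.08 and 18.2 FPKM in samples 1, 5, 6 and 7, and at 0 to 0.0808 FPKM (median 0.0222) in CD-1. The 3 Type-1 neurons were each above sample 1, and all 4 were well above the CD-1 range, a difference of 2.77 (2.82 ± 1.26 against 0.04 ± 0.04). Grik4, a kainate receptor subunit, was at 1.52, 1.37, 14 and 2.65 FPKM against 0 to 0.813 FPKM (median 0.00906), and Lin28b, an RNA-binding protein of early development, at 4.45, 1.96, 2.30 and 1.36 FPKM against 0 to 0.0412 FPKM (median 0.00665). Htr2a, Lin28b and Glra3 kept the lines apart under all 4 scalings, whereas Grik4 overlapped with DESeq2 size factors.

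Outside that pattern, and also chosen after the values were seen, stood Kcnn3, an SK channel of the afterhyperpolarization, at 11.9, 3.56, 0.857 and 2.73 FPKM against 0.00614 FPKM or less, and Camk2b, a subunit of calcium/calmodulin-dependent kinase, at 90.9, 69.1, 63.8 and 44.3 FPKM against 0.603 to 33.8 FPKM (median 13.1). Camk2b overlapped with TMM and DESeq2 scaling. The 8 genes of CD-1 were Rac2, Lmo2, Fam107b and Blvrb, described above, with Pgpep1, Smim1, the pseudogene Rpsa-ps9 and the mitochondrial mt-Tm. Pgpep1 and Smim1 were at 1.79 to 42.0 FPKM (median 9.59) and 1.25 to 19.2 FPKM (median 8.71) in CD-1, and at 0.732 and 0.0541 FPKM or less in Dbx1;Ai148.

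The genes that kept the lines apart also differed in kind and length. Named genes made up 127 of the 142 higher in Dbx1;Ai148 and 56 of the 121 higher in CD-1. The rest of the latter were 37 gene models named Gm, 21 pseudogenes by name, 6 ribosomal protein genes and 1 mitochondrial gene. No pseudogene by name, ribosomal protein or mitochondrial gene was higher in every Dbx1-derived neuron. By annotation, pseudogenes were 2 of 142 annotated genes higher in Dbx1;Ai148 and 50 of 116 higher in CD-1. Among all annotated genes compared they were 757 of 10242. Over all compared genes of a kind, sorted by name, the median difference was 0.35 for 8885 named genes and -0.89 for 219 pseudogenes by name. It was -1.20 for 86 ribosomal protein genes and -3.10 for 23 mitochondrial genes. Gene length, as deposited, had a median of 6419 bases in the first group, 1146 bases in the second and 4132.5 bases in all genes compared, and 6654, 2534 and 4614 bases when named genes alone were taken.

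In 5 bins of all compared genes by length, equal in size, the median difference was -0.51, 0.13, 0.38, 0.51 and 0.60 from the shortest genes to the longest. Genes higher in every Dbx1-derived neuron numbered 7, 15, 25, 37 and 58 in these bins, and those higher in every CD-1 neuron 82, 19, 12, 4 and 4. Over samples 5 to 10 the medians were -0.19, 0.10, 0.15, 0.26 and 0.30, the same order with a smaller span. The fragments of each library lay in genes of different length, as given above, and the part of gene length in the differences of single genes was not tested. Single genes did not all follow this order. Ogt, higher in Dbx1;Ai148, has 8045 bases and Ccl3, higher in CD-1, has 766. Against the order, Asb4, Fbxl6 and Thap3, higher in Dbx1;Ai148, have 3932, 2170 and 1334 bases, and Serpine2, higher in CD-1, has 8287.

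**Figure D5:**
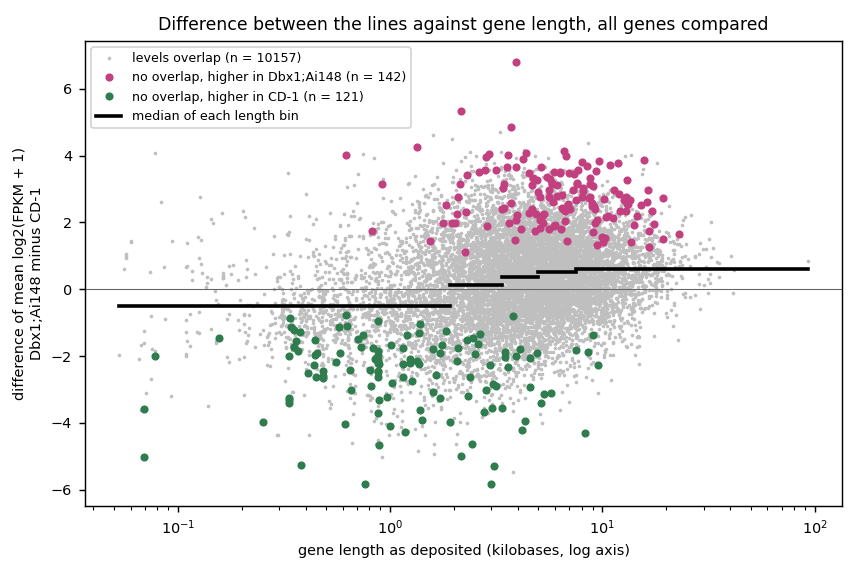
Difference of mean log2(FPKM + 1), Dbx1;Ai148 minus CD-1, against gene length in kilobases (log axis) for the 10420 genes compared, with the 142 genes higher in every Dbx1;Ai148 neuron in magenta, the 121 higher in every CD-1 neuron in green and the median of each of 5 length bins as a black bar. The bars go from -0.51 for the shortest genes to 0.60 for the longest.

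The neurons of a line were not much more alike than neurons of different lines. Spearman correlations of FPKM across the 10420 genes, given as a description since genes are no replicates, were 0.397 to 0.651 (median 0.525) for the 6 pairs within Dbx1;Ai148, 0.369 to 0.573 (median 0.479) for the 15 pairs within CD-1 and 0.248 to 0.653 (median 0.455) for the 24 pairs between the lines. Over samples 5 to 10 they were 0.588 to 0.651 within Dbx1;Ai148, 0.508 to 0.573 within CD-1 and 0.522 to 0.653 between the lines. Pairs between the lines thus reached values as high as those within Dbx1;Ai148.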

How the data were processed

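Single inspiratory neurons were recorded in whole-cell mode in slices at 9 mM external potassium, and their contents were aspirated and made into 1 unstranded library each. Per the methods of the study, reads were checked with FastQC 0.11.8 and aligned with STAR 2.7.7a to GRCm38 with Ensembl 102 models, and featureCounts gave the deposited fragment counts per gene. The FPKM were computed by the authors from counts, gene length and total counted fragments. How reads matching several genes were counted is not given in the sources used here.

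Samples were grouped by the line in the labels. Values per neuron, means, SDs and overlaps were computed with pandas 2.3.3 and NumPy 2.4.6 in Python 3.11.15, and drawn with Matplotlib 3.10.9, on FPKM as deposited, with a pseudocount of 1 on the log2 scale. edgeR 4.0.16 (TMM) and DESeq2 1.42.0 (size factors) in R 4.3.3 served for alternative scaling of the counts only. TPM were computed from counts and lengths, set to the mean summed FPKM. Depth was 21392146 to 36629393 fragments, so 3 counts, the limit that a count of 0 allows, are 0.0819 to 0.14 per 1000000 fragments. Intervals and limits cover counting error only.

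Named were the 14 genes per direction with the largest difference among those that did not overlap, leaving out Gm and Rik models, ribosomal protein, mitochondrial and pseudogenes, and of each list the members that did not overlap or otherwise up to 4 with the largest difference, with Dbx1 and Slc17a6. The groups compared, the gene lists and the rules were chosen with earlier results of these data known. Positions come from GENCODE annotation on GRCm38, which held 10242 of the 10420 genes compared. Promoters were from RefSeq GRCm38.p6 and were found for 7535. The counting steps were tested on simulated data. The alternatives tried were other filters, scalings, pseudocounts, medians, and sets of neurons. Results for a few genes of the lists and of the leading genes are not reported here, though they are included in the counts and medians.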

Additional observations from a re-analysis of the deposited data

Results flagged for a closer look

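Of 122 sets of 4 or 6 values, 25 held a neuron far from the rest of its line by Dixon's criterion. Its chance rate of about 1 in 20 is for independent sets that were not selected. Some lists here share members, and the leading genes were chosen because the lines did not overlap. The 25 therefore cannot be set against that rate. Of the 25, 11 fell on sample 1, with lists and markers that share members counted apart. It had 5065 genes at 1 FPKM or more, with 8720 in the nearest Dbx1;Ai148 neuron. By mean log2(FPKM + 1) of a list, sample 1 stood at 1.04 for GABA-A and glycine receptors (nearest 2.61), 3.63 for vesicle release (5.55), 2.93 for calcium buffers (4.86) and 0.11 for glutamatergic markers (2.23), all low. The same sample was high for the GABAergic and glycinergic list, at 4.88 (0.67), and for the markers of that kind, at 4.72 (0.78). By log2(FPKM + 1) it was high for Mapk7 at 7.23 (3.93), Snx11 at 6.87 (3.28), Sphkap at 5.14 (3.98) and Car2 at 2.4 (0.27).

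Sample 5 was the Dbx1;Ai148 neuron far above its group for Gatm, at 3.15 (nearest 0.34), and for Siglech, at 1.90 (0.17).

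Among CD-1 neurons, sample 4 was low for neuron markers, with a mean log2 level of 2.10 (nearest 6.38), and high for Siglech, at 7.47 (4.18), and Snx11, at 0.86 (0.05). Sample 8 was high for the glutamatergic list, at 2.97 (1.06), its markers, at 2.62 (0.50), Fbxl6, at 3.82 (0.20), and Spns1, at 2.19 (0.17). Sample 9 was high for the cholinergic and motoneuron list, at 5.54 (0.55), and its markers, at 4.28 (0.68), and for Mapk7, at 2.59 (0.05), and Gpr19, at 0.13 (0.03). Sample 2 was high for Sphkap, at 1.94 (0.08). No explanation of these values was tested.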

How the results depend on the processing

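The 28 leading genes kept the sign of their difference under the alternatives tried, which is no sign of stability, since they were chosen for levels that do not overlap and leaving out neurons, medians or another pseudocount cannot turn it. At the stricter limit of 1 FPKM in 5 neurons 23 of them were included. Counts of genes whose lines did not overlap depended on the neurons: leaving out each in turn gave 163 to 363 higher in Dbx1;Ai148 and 145 to 233 higher in CD-1, over 1.5 times the 142 and 121 without sample 1 (363), 5 (267 and 217), 7 (243 and 192), 8 (296), 9 (220 and 200) or 10 (282 and 233). Fewer neurons leave fewer values to overlap, and samples 5 to 10 gave 652 and 462 and the P0 neurons 1506 and 1688. The limit of 5 neurons gave 88 for Dbx1;Ai148, and TPM 229 and 58. Counts of differences of 2 or more became 2504 and 1195 with a pseudocount of 0.1, 33 and 94 with 10, 1647 in Dbx1;Ai148 with medians over neurons and 1550 in CD-1 at P0. They follow the scale, since a larger pseudocount shrinks each difference.

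Of list medians, calcium channels moved to 0.42 with all genes that had a fragment, 1.83 with the limit of 5 neurons, 1.79 at P0 and with medians over neurons, and 2.32 and 0.41 with pseudocounts of 0.1 and 10. Lineage factors moved to -0.13 with all genes that had a fragment, 3.03 with a pseudocount of 0.1 and 0.57 with 10. A pseudocount of 0.1 also gave 1.47 for delayed rectifiers and 2.52 for AMPA and NMDA receptors. Over samples 5 to 10 the h-current list was at -1.10 and AMPA and NMDA receptors at 0.10. At P0, the glutamatergic list was at 0.55 and its markers at -0.52, sodium and cation currents at -0.0034, vesicle release at -0.087 and strain genes at -1.83. Beyond these values, the causes of these shifts were not tested.

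The rule of 1 FPKM in every neuron of a line was chosen after seeing the data. No paired analysis was possible because the sample numbers differ between the lines and pair no neurons. Detection at 0 fragments is limited to 3 per neuron, and with 4 and 6 neurons from an unstated number of animals, the spread between animals is unknown.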
